A study of Mus musculus with 24 samples.

Results

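The comparison described here sets the cerebrum of Polr3a mutant mice against that of wild type mice at postnatal day 75 (P75), across all genes of the deposited count table. Its members were chosen by their labels: the 8 libraries marked as cerebrum and P75, of 24 libraries in the series. There were 4 mutant and 4 wild type libraries, all from males of the C57BL/6J strain. Every mouse, wild types included, had received tamoxifen at P28, 47 days before the tissue was taken, to switch on a mutant Polr3a allele in the animals that carry it. The labels do not say whether the wild types also carried the Cre transgene, nor which promoter drives it, so an effect of Cre and one of the mutation cannot be told apart. They also do not say that each library came from a separate animal, so the p-values measure the spread between libraries. The libraries were made from polyadenylated RNA of whole tissue, in which fewer cells of a type and less RNA per cell cannot be told apart.

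The protein made from Polr3a is the large catalytic subunit of RNA polymerase III, the enzyme that makes transfer RNAs, 5S ribosomal RNA, U6 RNA and other short noncoding RNAs. Most of these products have no polyA tail and are not captured here, so the data show how messenger RNAs differ in the mutants. Human POLR3A mutations cause a hypomyelinating leukodystrophy. Several responses known to follow faults in translation or nucleic acid metabolism can be read from messenger RNA: the integrated stress response, in which the transcription factor ATF4 raises amino acid synthesis, amino acid transport and tRNA charging; the p53 response; and the type I interferon response, in which sensors of foreign or misplaced RNA and DNA switch on antiviral genes through STAT and IRF transcription factors.

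Total counts per library spanned 15714578 to 20481390 in the wild types and 16882816 to 19532903 in the mutants. Levels are given in CPM, counts scaled to a common library total after TMM scaling, in the order of replicates 1 to 4. The labels do not say whether libraries of the same number are pairs, and the main test does not pair them. Polr3a itself, whose transcript the mutation need not lower, had 31.3, 37.8, 30.4 and 35.9 CPM in the wild types and 32.1, 31.2, 33.1 and 30.01 CPM in the mutants, with a log2 fold change (mutant over wild type) of -0.10 ± 0.09 (SE, adjusted p = 0.542). Esr1, the estrogen receptor gene whose ligand-binding domain is part of tamoxifen-inducible Cre, had 6.62, 6.80, 5.03 and 5.40 CPM in the wild types and 95.4, 132, 64.6 and 61.8 CPM in the mutants (3.90 ± 0.23, adjusted p = 1.09e-06). At P42 its log2 fold change was 3.56 ± 0.44 (adjusted p = 0.0716). Markers of cortex and striatum were abundant in all libraries, the lowest being Drd1 at 31.9 to 49.9 CPM per library total. Of 5 cerebellar markers Gabra6 had 0 counts in all 4 wild types and 7 in the mutants together, Pcp2 and Cbln3 stayed under 2 CPM, and Cbln1 and Zic1 had 21.4 to 31.2 and 51.1 to 82.1 CPM per library total with neither called. Of 17523 genes tested with edgeR's quasi-likelihood test, 2502 were called at an adjusted p under 0.05, which is 14.3%: 1342 higher in the mutants (7.66%) and 1160 lower (6.62%). The groups did not overlap for 3506 genes (20%). Rises were larger than falls: 608 called genes were at least 2-fold higher and 37 at least 2-fold lower. With scaling by library size alone the median of all genes moved from 0.0031 to 0.11 and the split to 2313 higher and 547 lower, so small falls depend on the scaling. Without mutant 1 the test called 1356 genes and without wild type 4 it called 1634. The counts below are of tested members of gene lists, and a gene can be on several lists. In 39 lists edgeR called 0 members lower; of their 907 entries 30 were lower at an unadjusted p under 0.05 and DESeq2 called 9. In 17 lists it called 0 higher; of 449 entries 4 were higher at that p and DESeq2 called 1.

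The mutant libraries were not alike. On the first principal component, with 57.8% of the variance, wild types lay between -27.7 and -21.3 and the mutants at 37.1, 34.1, 15.4 and 8.2. Mutants 1 and 2 stood farther from the wild types than mutants 3 and 4 in the interferon, microglial, astrocytic and striatal genes below, and the 4 were closer together in the amino acid and tRNA genes. The labels name no batch, and the depth of mutants 1 to 4 (16882816, 19238445, 19532903 and 17411876 counts) did not follow that order. What else differed between these mutants was not tested. Between the groups, TMM factors were 0.942 to 0.975 in the wild types and 1.02 to 1.07 in the mutants, and the 50 most abundant genes took 11.5 to 12.6% and 9.75 to 10.5% of counts; their part in the results was not tested.

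**Figure D1:**
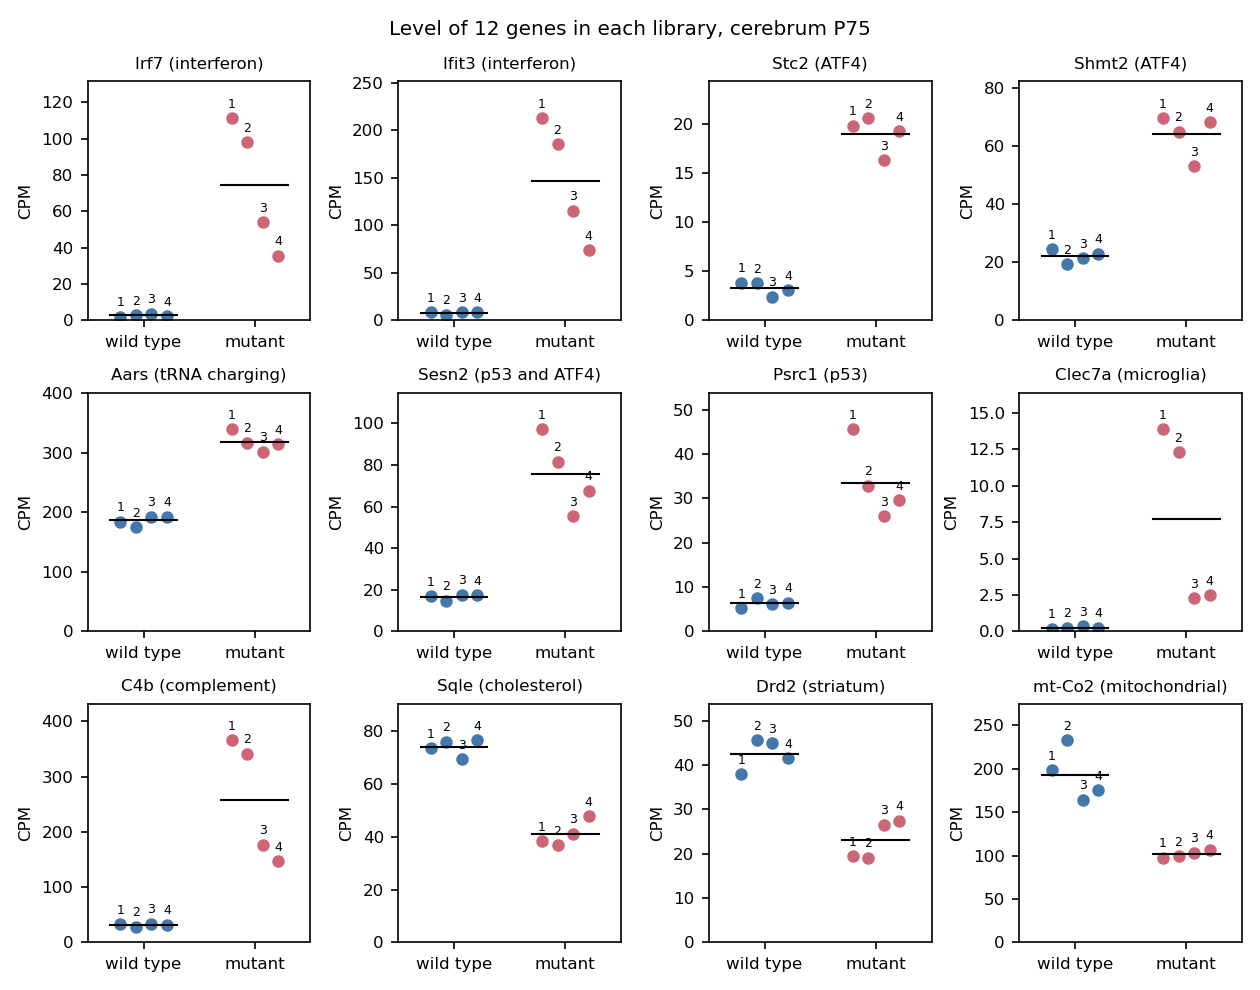
Level in CPM (vertical axis, linear and starting at 0) of 12 genes in each wild type (blue) and mutant (red) library, numbered by replicate, with a black line at the group mean. Irf7, Ifit3, Clec7a and C4b are highest in mutants 1 and 2, while Stc2, Aars and mt-Co2 are at similar levels in all 4 mutants.

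The genes of RNA polymerase III and of its transcription factors changed little. Of 18 subunit genes, Crcp and Polr3e rose, by 0.38 ± 0.10 (adjusted p = 0.0252) and 0.33 ± 0.10 (adjusted p = 0.0379), and Polr3k fell by 0.44 ± 0.10 (adjusted p = 0.00831). Without wild type 4 or without mutant 1 neither rise was called. The median over the subunits was 0.08, beside 0.0031 over all genes. Of 18 genes of the TFIIIA, TFIIIB, TFIIIC and SNAPc factors 0 passed edgeR's test and 0 passed DESeq2. At an unadjusted p under 0.05 there was 1, and the smallest adjusted p was 0.157, for Snapc4. Of 10 RNA polymerase III transcripts on the list, Rn7sk alone had enough counts to be tested. It had 3.34, 0.80, 1.96 and 0.99 CPM in the wild types and 1.0, 0.56, 1.0 and 0.51 CPM in the mutants (-1.21 ± 0.45, adjusted p = 0.089), with overlapping groups. It was called lower without a count filter (adjusted p = 0.0252) and without wild type 2 (adjusted p = 0.044). In polyA libraries such reads are no measure of RNA polymerase III output.

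Genes that charge transfer RNAs rose. Of 23 cytosolic aminoacyl-tRNA synthetase genes, which join each amino acid to its transfer RNA, 12 rose and 1 fell, with a median log2 fold change of 0.51. The risers were the synthetases for alanine, asparagine, cysteine, glycine, isoleucine, leucine, methionine, serine, threonine, tyrosine and valine and the joint enzyme for glutamate and proline (Eprs). Aars, the alanine enzyme (chromosome 8, 111033144 to 111057664, mm10), had 184, 175, 192 and 193 CPM in the wild types and 340, 316, 301 and 314 CPM in the mutants. The groups did not overlap, and the change was 0.77 ± 0.07 (adjusted p = 6.15e-06). Nars (asparagine), Yars (tyrosine) and Sars (serine) rose by 0.73 ± 0.07, 0.75 ± 0.07 and 0.67 ± 0.07. Farsb, a subunit of the phenylalanine enzyme, fell by 0.46 ± 0.09 (adjusted p = 0.00343). The count of 12 was the lowest over all processing settings, which gave 12 to 16.

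Of their 17 mitochondrial counterparts 0 were called by edgeR and 0 by DESeq2, and 1 had an unadjusted p under 0.05 (Sars2, adjusted p = 0.133). Among 43 genes of tRNA processing, export and modification 5 rose. Xpot, the export receptor of transfer RNAs, rose by 0.51 ± 0.08 (adjusted p = 9.73e-04), and Wdr4, a subunit of a tRNA methyltransferase, by 0.45 ± 0.09 (adjusted p = 0.0058). The median of that list was 0.06, and its count fell to 2 without wild type 1 or mutant 1 and to 3 without wild type 3 or mutant 2. Of 44 translation factor genes 8 rose and 2 fell. Eif4ebp1, an inhibitor of cap-dependent initiation and itself an ATF4 target, rose by 1.92 ± 0.18 (adjusted p = 1.12e-05) and Eif3c, a subunit of initiation factor 3, by 0.57 ± 0.07. Eef1a2, the elongation factor of neurons and muscle, fell by 0.38 ± 0.07 (adjusted p = 0.00241). The 8 rises became 4 without wild type 1, 3 or 4 and 5 without mutant 1 or 2, and 16 with scaling by library size alone. Of 81 cytosolic ribosomal protein genes 1 rose: Rps27l, which is also a p53 target, by 0.75 ± 0.12 (adjusted p = 8.13e-04). That count was 7 under library-size scaling, 4 without a count filter and 3 without wild type 3.

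Targets of ATF4 rose. Of 37 tested members 34 rose and 0 fell, with a median of 0.75, and the other 3 (Cth, Gpt2 and Vldlr) had values above 0. Stc2, a secreted glycoprotein (chromosome 11, 31357307 to 31370074), had 3.85, 3.80, 2.42 and 3.09 CPM in the wild types and 19.8, 20.6, 16.3 and 19.3 CPM in the mutants. All mutants lay far above all wild types, and the change was 2.54 ± 0.16 (adjusted p = 1.09e-06). Shmt2, the mitochondrial serine hydroxymethyltransferase of one-carbon metabolism, had 24.4, 19.3, 21.5 and 22.96 CPM against 69.6, 64.9, 52.99 and 68.2 CPM. Slc7a3, a transporter of cationic amino acids, rose by 1.38 ± 0.09 and Ddit3, the transcription factor CHOP, by 1.8 ± 0.12; both had adjusted p = 1.09e-06.

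The rise spanned the branches of the program. Genes named in this paragraph were picked after their values were seen, to cover those branches. Among serine and one-carbon enzymes Mthfd2 had 10.5 to 13.8 CPM in the wild types and 26.1 to 36.5 CPM in the mutants, and Psat1 and Phgdh rose by 0.32 and 0.45. The call of Psat1 was lost without wild type 1, 3 or 4 or mutant 1 or 2. Among feedback regulators Trib3, a pseudokinase that restrains ATF4, rose by 2.64 ± 0.24 and Ppp1r15a, which returns eIF2 to its active state, by 0.96. Atf4 itself rose by 0.55 ± 0.08, from 132, 120, 144 and 134 CPM to 201, 192, 176 and 206 CPM. Asns, asparagine synthetase, rose by 0.64 ± 0.08. Gdf15, a stress cytokine that is a target of both ATF4 and p53, had the largest value (4.15 ± 0.73) from very low levels, 0 to 0.10 CPM in the wild types and 0.60 to 2.50 CPM in the mutants.

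Chac1, a glutathione-degrading enzyme, had 6.37, 6.34, 8.25 and 9.41 CPM in the wild types and 35.3, 29.5, 25.4 and 30.8 CPM in the mutants, a change of 1.99 ± 0.15 (adjusted p = 1.74e-06). Its promoter is printed because it was the ATF4 target with the smallest p that holds the core of the C/EBP-ATF response element, the composite site that ATF4 is known to bind. The window runs from 250 bases before to 50 after the start in RefSeq's GRCm38.p6 annotation (chr2:119350992-119351291, plus strand), 5′ to 3′, with the match in capitals.
Chac1: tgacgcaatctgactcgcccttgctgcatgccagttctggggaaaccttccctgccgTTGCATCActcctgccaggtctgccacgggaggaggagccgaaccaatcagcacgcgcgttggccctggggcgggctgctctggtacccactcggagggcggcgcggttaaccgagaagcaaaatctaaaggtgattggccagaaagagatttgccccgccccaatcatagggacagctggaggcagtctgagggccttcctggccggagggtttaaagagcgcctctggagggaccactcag
The element was searched as TGATGNAA, N being any base, on both strands. In Chac1 it lay on the minus strand, 193 to 186 bases before the start. A match was found in 4.51% of all 27025 genes with a promoter in that table and in 2.82% of tested genes. It was found in 5.75% of genes called higher and 2.83% of those called lower, in 8 of 32 ATF4 targets and in 5 of 15 cytosolic synthetase genes with a promoter (Aars, Gars, Iars, Tars and Yars). It was also in 8 of 50 antiviral effector genes (16%). A match is a description of letters and shows no binding.

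The lists of other stress programs held fewer called genes. Of 25 genes of the endoplasmic reticulum stress response 2 rose and 2 fell. These shares, 8% each way, lie near the 7.66% higher and 6.62% lower over all genes. Herpud1, of the degradation machinery, rose by 0.57 ± 0.10 and Eif2ak3, the sensor kinase PERK, by 0.38 ± 0.09, while the chaperones Hspa5 (BiP) and Calr fell by 0.25 ± 0.06 and 0.25 ± 0.07. Both falls were absent under library-size scaling and without wild type 1 or 3 or mutant 1, 2 or 3. Of 17 heat shock genes Hspa1a and Hspa1b rose, by 1.30 ± 0.23 and 1.06 ± 0.20, and 5 fell, among them Hsph1 (0.37 ± 0.07) and Cryab, which is on the myelin list too. The 5 falls were 2 under library-size scaling or without wild type 1 or 3 or mutant 3, and 3 without mutant 1 or 2. Of 17 NRF2 targets 3 rose: Hmox1, heme oxygenase 1, had 3.88 to 5.68 CPM against 9.88 to 18.1 CPM, a change of 1.52 ± 0.21 (adjusted p = 2.96e-04). Slc7a11 and Ftl1 rose by 0.37 each, and the count fell to 1 without wild type 3 or 4 or mutant 1 or 2.

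Targets of the tumour suppressor p53 rose. Of 28 tested members 18 rose and 0 fell, with a median of 0.78. Sesn2, which is on the ATF4 list too, had 17.03, 14.7, 17.7 and 17.5 CPM in the wild types and 97.3, 81.6, 55.3 and 67.6 CPM in the mutants. Psrc1, a microtubule-associated protein gene, had 5.30 to 7.54 CPM in the wild types and 25.9 to 45.7 CPM in the mutants, with no overlap. Bbc3 and Pmaip1, the pro-apoptotic proteins PUMA and NOXA, rose by 1.86 ± 0.14 (adjusted p = 2.6e-06) and 2.60 ± 0.27 (adjusted p = 2.41e-05). Cdkn1a, the cell cycle inhibitor p21, had 43.3, 32.8, 34.6 and 30.7 CPM against 120, 104, 75.7 and 77.2 CPM, a change of 1.42 ± 0.15. Mdm2, the ligase that degrades p53, rose by 0.75 ± 0.13 and Bax by 0.75 ± 0.11 (both named after their values were seen). The p53 list shares Sesn2 and Gdf15 with the ATF4 list, and Bbc3, Pmaip1, Bax and others with the cell death list, so these counts are not separate.

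Of 32 genes of programmed cell death 14 rose and 0 fell, with a median of 0.46. They came from several routes: PUMA, NOXA and Bax of the mitochondrial route; Tnfsf10, the death ligand TRAIL, with 2.30 to 3.22 CPM in the wild types and 8.56 to 10.1 CPM in the mutants; and Zbp1, a nucleic acid sensor of necroptosis, with 0.13 to 0.32 CPM against 11.7, 12.8, 5.34 and 2.93 CPM. Casp4 rose by 2.50 ± 0.53.

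Of 33 cell cycle genes 10 rose and 0 fell, with a median of 0.58, and 6 rose without wild type 4 or without mutant 1. Ube2c, a mitotic ubiquitin-conjugating enzyme, had 0.44, 0.27, 0.45 and 0.66 CPM in the wild types and 3.62, 3.53, 3.44 and 3.27 CPM in the mutants (2.91 ± 0.30, adjusted p = 2.25e-05). The proliferation marker Mki67 rose by 1.30 ± 0.27, Top2a by 1.54 ± 0.32 and Mcm6, of the replicative helicase, by 0.97 ± 0.18. Clspn, a replication checkpoint adaptor, was in contrast among the largest falls, by 1.37 ± 0.23 (3.12 to 4.29 CPM against 1.28 to 1.61 CPM). Histone genes of the replication-dependent clusters were a group counted after their values were seen. Only 23 of the 70 found could be tested, of which 16 were called higher and 0 lower, with a median of 2.30. How much of their RNA carries a tail and reaches a polyA library was not measured, and its part in the rise was not tested. Hist1h2bk had 2 counts over the wild types and 388 over the mutants, a ratio of 169 (95% exact interval 46.5 to 1400, counting error only). Hist1h2ah had 0 counts against 184, which is at least 53.5-fold higher against a floor of 3 counts over the wild type group. Reads of such near-identical genes can be split or shared by the counting, so values of single histone genes are uncertain.

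Genes of the interferon system rose in all 4 mutants, from the transcription factors to the effectors. At its head, transcripts of the interferons themselves were close to absent: 21 ligand genes had 5 counts in all over the wild types and 28 over the mutants, and none could be tested. Of the receptor genes Ifnar2 rose by 0.48 ± 0.14 (adjusted p = 0.0342), a call lost without any of 6 of the 8 libraries, and Ifngr1 had 0.30 ± 0.12 (adjusted p = 0.127). Downstream, 12 of 23 JAK, STAT and IRF genes rose and 0 fell. Irf7, the master regulator of type I interferon genes (chromosome 7, 141262706 to 141266481), had 2.15, 2.73, 3.72 and 2.44 CPM in the wild types and 111, 98.2, 53.9 and 35.6 CPM in the mutants, a change of 4.74 ± 0.34 (adjusted p = 1.63e-06). Stat2 and Irf9, parts of the ISGF3 complex, rose by 1.67 ± 0.18 and 2.19 ± 0.19.

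Of 26 genes of nucleic acid sensing 12 rose and 1 fell, with a median of 0.71. The cytosolic RNA sensors rose: Ifih1 (MDA5) had 5.29 to 6.54 CPM against 43.8, 39.5, 25 and 19.8 CPM, and Ddx58 (RIG-I) had 6.51 to 8.86 CPM against 65.4, 57.01, 35.2 and 25.1 CPM. Ddx60, a helicase cofactor, rose by 4.06 ± 0.36. Their adaptor Mavs (0.12) and kinase Tbk1 (-0.08) were not called. Among DNA sensors Tmem173 (STING) rose by 1.02, and Mb21d1 (cGAS) had 0.78 with adjusted p = 0.0783. Adar, which edits double-stranded RNA, rose by 0.21 ± 0.06 (adjusted p = 0.0375), a call lost without a count filter and without any of 6 of the 8 libraries. The gene that fell was Lsm11, of the histone pre-mRNA processing machinery, by 0.41 ± 0.10. Without mutant 1 neither Tmem173 nor Lsm11 was called, and 8 genes of the list rose.

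Of 65 antiviral effector genes 57 rose and 0 fell, with a median of 2.19, and leaving out libraries or changing the scaling gave 54 to 59. Oasl2 had 5.74, 3.73, 4.93 and 4.74 CPM in the wild types and 217, 194, 104 and 69.9 CPM in the mutants (4.93 ± 0.33, adjusted p = 1.09e-06). Ifit3, which blocks translation of viral RNA with its IFIT partners, had 8.58, 5.94, 8.61 and 8.75 CPM against 213, 185, 116 and 73.7 CPM (4.2 ± 0.29). Both show no overlap, with mutants 1 and 2 above mutants 3 and 4. Ifitm3, a membrane protein that hinders virus entry, rose by 2.72 ± 0.21. Of 7 genes of the ISG15 conjugation system, a ubiquitin-like tag, 6 rose: Isg15 itself by 4.39 ± 0.31, its protease Usp18 by 4.29 ± 0.35, its activating enzyme Uba7 by 2.28 ± 0.27 and the ligase Trim25 by 1.67 ± 0.20.

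All 17 tested genes of the interferon-inducible GTPases rose, of 22 found in the table, with a median of 2.94. Mx1 had 0.15 to 0.73 CPM in the wild types and 29.9, 26.2, 13.1 and 8.90 CPM in the mutants (5.44 ± 0.46), Gbp3 rose by 3.62 ± 0.25, and Igtp, of the immunity-related GTPases, by 2.94 ± 0.21. All 9 tested of 13 PYHIN genes, a cluster of DNA-binding proteins on chromosome 1, rose, with a median of 4.23 that is the same when the member without wild type counts is set to its bound. Ifi204 had 0.50 to 0.67 CPM against 18.1, 17.9, 9.18 and 4.90 CPM. Ifi206 had 0 counts in the wild types and 252 in the mutants, at least 73.2-fold higher when the group is set to that floor, and Ifi211 had 3 against 247 counts, a ratio of 71.8 (24.3 to 351). The members of this cluster and of the GTPase families are close copies of each other, so single values depend on how reads were assigned. Members with hardly any wild type counts, such as Ifi206 and Ifi211, passed the count filter only through the mutants. The full counts of risers in these lists and their medians are thus partly set by the filter. Members with too few counts to be tested enter no count here. Of 5 Schlafen genes 4 rose, led by Slfn9 (3.23 ± 0.37) and Slfn8 (3.0 ± 0.35).

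The promoters of 3 interferon-induced genes are printed because each was the member of its list with the smallest p that holds the core of the interferon-stimulated response element, where ISGF3 and the IRFs are known to bind. They are the same 300-base windows of RefSeq's GRCm38.p6, 5′ to 3′ on the gene's strand, with matches in capitals. Ifit3 lies at chr19:34583279-34583578 (plus strand), H2-T23, a nonclassical MHC class I gene, at chr17:36032652-36032951 (minus strand), and Ifi211, a PYHIN gene, at chr1:173912997-173913296 (minus strand).
Ifit3: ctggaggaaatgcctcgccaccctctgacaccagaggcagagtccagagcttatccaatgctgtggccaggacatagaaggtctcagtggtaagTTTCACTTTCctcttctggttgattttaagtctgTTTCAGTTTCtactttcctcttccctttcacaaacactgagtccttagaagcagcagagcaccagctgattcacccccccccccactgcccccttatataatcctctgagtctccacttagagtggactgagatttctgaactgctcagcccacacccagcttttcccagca
H2-T23: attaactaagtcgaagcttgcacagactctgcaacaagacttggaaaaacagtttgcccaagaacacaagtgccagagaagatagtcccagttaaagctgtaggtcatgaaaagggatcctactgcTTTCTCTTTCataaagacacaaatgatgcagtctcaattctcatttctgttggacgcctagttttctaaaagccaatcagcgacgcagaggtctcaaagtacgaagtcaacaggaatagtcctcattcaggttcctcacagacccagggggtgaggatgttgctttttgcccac
Ifi211: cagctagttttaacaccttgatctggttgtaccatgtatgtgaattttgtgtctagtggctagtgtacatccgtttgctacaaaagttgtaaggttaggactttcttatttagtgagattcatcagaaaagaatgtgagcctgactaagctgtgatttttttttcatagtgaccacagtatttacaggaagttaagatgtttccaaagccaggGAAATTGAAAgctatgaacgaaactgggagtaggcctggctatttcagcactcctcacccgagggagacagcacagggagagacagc
The core was searched on both strands as a pair of GAAA blocks with any 2 bases between them. Ifit3 held 2 matches, 156 to 147 and 122 to 113 bases before the start, H2-T23 held 1 at 124 to 115 bases and Ifi211 held 1 at 37 to 28 bases before the start. The core was found in 3.99% of all genes with a promoter and in 3.7% of tested genes. It was found in 9.82% of genes called higher (99 of 1008) and in 3.18% of genes called lower (27 of 849). It was in 24 of 50 antiviral effector genes with a promoter in the table, 9 of 10 GTPase genes, 6 of 8 PYHIN genes and 3 of 12 MHC class I genes. The core was also in 1 of 6 ISG15 genes and in 3 of 29 presynaptic genes (10.3%), a list that fell. The core of the gamma-activated site, TTCNNNGAA, was in 8.12% of tested genes, 8.83% of genes called higher and 6 of 10 GTPase genes.

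Genes of antigen presentation on MHC class I rose. Of 17 MHC class I genes 14 rose and 0 fell, with a median of 1.26. H2-K1 had 33.6, 25.5, 37.4 and 34.1 CPM in the wild types and 240, 225, 119 and 97.5 CPM in the mutants, and H2-D1 rose by 2.32 ± 0.24; these genes are near-identical to others of the cluster. B2m, the shared light chain, had 64.5 to 77.6 CPM against 451, 452, 199 and 182 CPM. Nlrc5, the class I transactivator, rose by 3.44 ± 0.28 (adjusted p = 3.92e-06), and the peptide transporters Tap1 and Tap2 by 3.02 ± 0.27 and 1.43 ± 0.20. All 5 genes on the list of the immunoproteasome, a form that makes peptides for class I, rose: Psmb8 and Psmb9 by 2.65 ± 0.31 and 2.37 ± 0.35, Psme1, Psme2 and Psmb10 by 0.72, 1.05 and 0.61. Of 31 genes of the constitutive proteasome 0 were called by edgeR and 1 by DESeq2, and 1 had an unadjusted p under 0.05 (Psmc1, adjusted p = 0.0534); the median was 0.02. Of 8 MHC class II genes 2 rose: H2-DMb1 by 1.20 ± 0.34 and Cd74, the invariant chain, by 0.78 ± 0.24. Without wild type 3 or 4 or mutant 1 or 2 the list gave 0 calls, and without wild type 1 or 2 it gave 1.

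Microglia-related genes rose, with mutants 1 and 2 above mutants 3 and 4. Of 33 markers of disease-associated microglia 24 rose and 0 fell (median 1.30). Cst7, a cysteine protease inhibitor, had 0.07 to 0.63 CPM in the wild types and 21.1, 23.9, 4.54 and 3.38 CPM in the mutants, and Itgax (CD11c) had 0.07 to 0.33 CPM against 14.1, 13.4, 2.79 and 2.31 CPM. Of 22 phagocytic and Fc receptor genes 17 rose (median 1.38). Clec7a, the beta-glucan receptor Dectin-1, had 0.19 to 0.35 CPM in the wild types, 13.9 and 12.3 CPM in mutants 1 and 2, and 2.29 and 2.48 CPM in mutants 3 and 4. Of 22 homeostatic microglia markers 7 rose and 0 fell (median 0.40), with Trem2 at 1.59 ± 0.27 and Tmem119 at 0.64 ± 0.12. That count was 11 without mutant 3, without a count filter or under library-size scaling. The mean level of the homeostatic list was 0.67 and 0.66 above wild type (log2 units) in mutants 1 and 2 and 0.10 and 0.11 in mutants 3 and 4, while wild types spanned -0.08 to 0.04.

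Of 31 lysosomal genes 13 rose and 0 fell, with a median of 0.33 (20 under library-size scaling). Ctss had 43.1 to 55.6 CPM against 230, 243, 122 and 93.7 CPM, and Grn, progranulin, 58.2 to 61.6 CPM against 189, 183, 105 and 87.7 CPM. Of 16 complement genes 10 rose. C4b had 32.7, 28.6, 34.2 and 32.4 CPM in the wild types and 366, 342, 177 and 147 CPM in the mutants (3.01 ± 0.25, adjusted p = 3.92e-06), and C1qa, C1qb and C1qc rose by 1.85 ± 0.25, 1.59 ± 0.23 and 1.55 ± 0.22. Of 16 chemokine genes 9 rose and 1 fell. Cxcl10 had 1.07, 0.07, 0.50 and 0.33 CPM against 48.03, 45.7, 24.6 and 14.2 CPM (6.03 ± 0.49), and Ccl5 rose by 5.65 ± 0.70. Cxcl9 had 3 counts over the wild types and 152 over the mutants, a ratio of 44.2 (14.8 to 217). Of 26 cytokine and receptor genes 14 rose and 1, Il34, a microglial growth factor made by neurons, fell (0.45 ± 0.09). Without mutant 1 or without mutant 2 the 14 became 9. Of 10 immune checkpoint genes 6 rose, with Cd274 (PD-L1) at 3.05 ± 0.28 and Lag3 at 2.48 ± 0.36.

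Markers of blood-borne cells were sparse. Of 31 T lymphocyte markers 12 could be tested; 3 rose, Lag3 and Lck among them, and 3 fell, among them Trbc2, with 4.73 to 6.05 CPM in the wild types and 1.5 to 3.21 CPM in the mutants. Either count was 1 without mutant 1, that of the risers also without wild type 4 and that of the fallers also without wild type 3 or mutant 2. The defining T cell genes Cd3e and Cd3g had 4 and 0 counts over the wild types and 15 and 7 over the mutants. Most of the 19 untested T lymphocyte markers likewise had more counts over the mutants, the highest total being 75 against 4. Of 17 cytotoxic and natural killer markers 3 could be tested, of which Ccl5 rose. Of 13 B cell and plasma cell markers 7 were tested. Cd79a, a part of the B cell receptor, rose by 4.2 ± 0.50 (0.38, 0.27, 0.35 and 0 CPM against 8.29, 4.84, 3.24 and 2.93 CPM), while Ighm fell by 0.64 ± 0.15. At P42 the log2 fold changes of Trbc2 and Ighm were -1.16 and -0.81. The neutrophil genes S100a8 and S100a9 were not called, at 0.57 to 1.71 CPM in all libraries, and Csf3r, a receptor of neutrophils and microglia, rose by 1.6 ± 0.25. Erythroid Hbb-bs had 6.34 to 39.9 CPM in the wild types and 4.45, 2.37, 81.5 and 7.94 CPM in the mutants, so mutant 3 was the highest and the groups overlapped. Of 11 tested markers of border macrophages and monocytes 1 rose, Plac8, by 3.55 ± 0.48.

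Reactive astrocyte genes rose, and few identity genes were called. Of 39 reactive markers 24 rose and 0 fell (median 1.07), Ifitm3, Cxcl10 and Gbp2 among them, which the interferon and chemokine lists also hold. Gfap, the intermediate filament of reactive astrocytes, had 243, 198, 204 and 232 CPM in the wild types and 1721, 1777, 752 and 599 CPM in the mutants. Of 28 astrocyte identity markers Sox9 rose by 0.38 ± 0.11 and Mfge8 fell by 0.28 ± 0.08, with a median of 0.04; either call was lost without some single libraries. Of 28 endothelial and blood-brain barrier genes 8 rose and 0 fell (median 0.25). Vwf, the clotting factor carrier, had 18.99 to 21.7 CPM against 33.3, 45.4, 38.5 and 37.5 CPM, and Eng, a TGF-beta co-receptor, rose by 0.72 ± 0.08. Slc7a5, the large amino acid transporter of the barrier and an ATF4 target, rose by 0.86 ± 0.09. The tight junction gene Cldn5 had 0.26 and was not called.

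Of 13 genes of endothelial adhesion 6 rose and 1 fell. Icam1 had 3.03, 1.33, 1.91 and 2.30 CPM against 9.57, 11.8, 10.5 and 6.31 CPM (2.15 ± 0.25), Vcam1 had 27.98 to 29.3 CPM against 46.8, 58.6, 49.3 and 41.3 CPM, and Ly6a rose by 1.27 ± 0.12. Of 13 pericyte and mural markers 3 rose, Notch3 by 0.49 ± 0.10, Pdgfrb by 0.38 ± 0.09 and Myh11 by 0.45 ± 0.14. In Icam1 and Vcam1 all 4 mutants lay above all wild types, with mutant 2 the highest and mutant 4 the lowest of the mutants. With library-size scaling 5 pericyte and mural genes rose. The call of Myh11 was lost without a count filter and without any 1 library other than mutant 4.

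Myelin genes differed little. Of 41 myelin and mature oligodendrocyte genes 1 rose and 2 fell, with a median of -0.06. Apod, a lipid carrier, rose by 0.82 ± 0.16, and Cryab and Ugt8a fell by 0.41 ± 0.11 and 0.29 ± 0.08; neither fall was called under library-size scaling or without wild type 1 or 3 or mutant 3 or 4. Mbp, a major myelin protein gene, was not called (adjusted p = 0.384). Of 20 precursor markers 2 fell, Pdgfra by 0.32 ± 0.07 and Gpr17 by 0.34 ± 0.10, a count that was 0 under library-size scaling or without mutant 1, 1 without wild type 3 or 4 or mutant 2 or 3, and 4 without wild type 2.

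Cholesterol synthesis fell. Of 25 genes of the pathway and its control 18 fell and 0 rose, with a median of -0.58, and 17 to 20 fell under all other settings. The fall ran along the pathway, from Hmgcs1 (0.77 ± 0.10) through Idi1 (1.10 ± 0.18) and Fdft1 (0.62 ± 0.08) to Cyp51 (0.60 ± 0.07) and Msmo1 (0.68 ± 0.09). Sqle, squalene epoxidase (chromosome 15, 59315077 to 59331192), had 73.5, 75.96, 69.3 and 76.6 CPM in the wild types and 38.4, 36.8, 41.1 and 47.7 CPM in the mutants (-0.85 ± 0.09, adjusted p = 2.29e-05). The groups did not overlap. The mean level of the list was -0.63 and -0.57 (log2 units against wild type) in mutants 1 and 2 and -0.40 and -0.38 in mutants 3 and 4. The controlling factor Srebf2 fell by 0.58 ± 0.08. (Hmgcs1 and Srebf2 were named after their values were seen.) Srebf1, the sister factor of fatty acid synthesis, rose by 0.68 ± 0.11, and Abca1, which exports cholesterol, had 43.95 to 51.8 CPM against 120, 145, 77.3 and 72.98 CPM (1.11 ± 0.18). Of the 22 genes of lipid efflux and fatty acid synthesis these 2 rose and 6 fell, Fads1 by 0.32 ± 0.06 and Scd1 by 0.34 ± 0.07; the 6 became 3 under library-size scaling and without wild type 1, 3 or 4 or mutant 1.

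**Figure D2:**
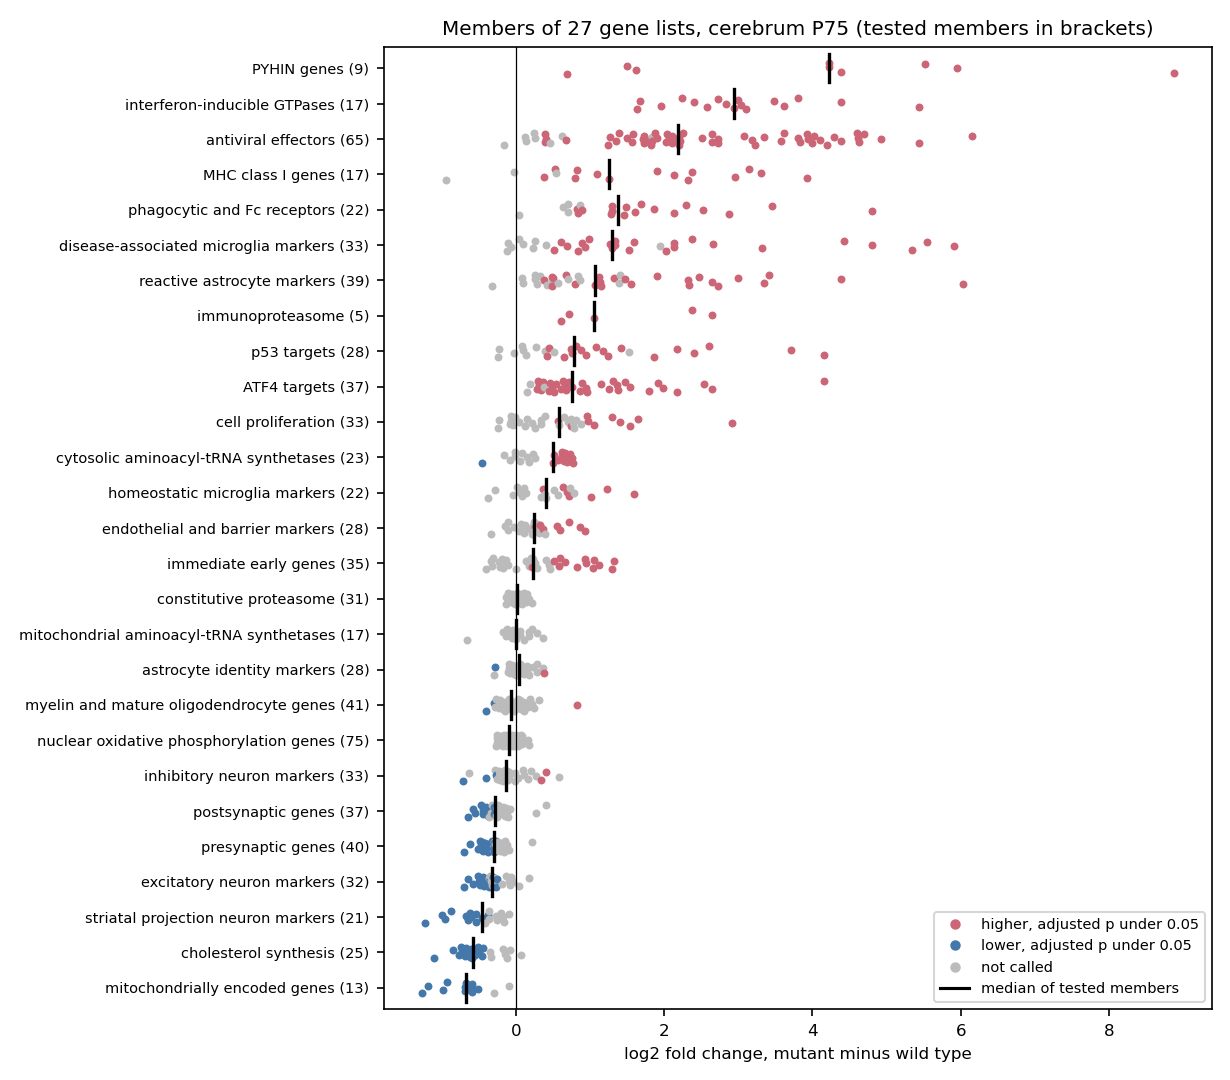
Log2 fold change (horizontal axis, mutant minus wild type) of each tested member of 27 gene lists (rows, number of members in brackets), with members called higher in red, called lower in blue and not called in grey, and a black bar at the median. Antiviral effectors, interferon-inducible GTPases and PYHIN genes have medians of 2.19, 2.94 and 4.23, ATF4 targets lie to the right of 0 for all members, and cholesterol and mitochondrially encoded genes lie to the left for nearly all.

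Neuronal genes fell by small amounts. Of 32 excitatory neuron markers 17 fell and 0 rose (median -0.32). Tbr1, a transcription factor of deep-layer cortical neurons, had 84.9, 120, 93.6 and 101 CPM in the wild types and 52.1, 63.1, 66.3 and 65.2 CPM in the mutants (-0.70 ± 0.11, adjusted p = 7.01e-04). Camk2a, the abundant kinase of excitatory synapses, fell by 0.65 ± 0.11, Calb1 by 0.48 ± 0.09 and Bcl11b by 0.45 ± 0.08. The vesicular glutamate transporter gene Slc17a7 fell by 0.35 ± 0.10, a call lost under library-size scaling and without wild type 3 or 4 or mutant 1 or 2. Of 33 inhibitory neuron markers 3 fell and 2 rose (9.09% and 6.06%, beside 6.62% and 7.66% over all genes), with a median of -0.13. The difference between the lists was not tested. Neither rise was called without wild type 1, 3 or 4 or mutant 2, and 5 fell without wild type 2 or mutant 4. Lamp5 fell by 0.71 ± 0.09 and Satb1 by 0.40 ± 0.09; Crhbp and Npy, both of peptidergic interneurons, rose by 0.41 ± 0.11 and 0.34 ± 0.10. Gad1, Sst and Pvalb were not called (-0.15, 0.16 and 0.12).

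Of 21 striatal projection neuron markers 12 fell and 0 rose, with a median of -0.46. Drd2, the dopamine receptor of indirect-pathway neurons, had 37.9 to 45.7 CPM against 19.4, 19.1, 26.6 and 27.5 CPM (-0.88 ± 0.12), and Adora2a and Gpr6, of the same neurons, fell by 1.0 ± 0.17 and 1.22 ± 0.21. Drd1, of the direct pathway, had -0.15 and was not called (adjusted p = 0.447). Gng7, Rasd2 and Scn4b fell by 0.67 ± 0.11, 0.65 ± 0.09 and 0.90 ± 0.11. Mutants 1 and 2 were the lowest in Drd2 and Gng7. The count was 9 to 16 under the other settings.

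Synaptic genes fell as well. Of 40 presynaptic genes 22 fell and 0 rose (median -0.29): Rims1, a scaffold of the active zone, had 200 to 267 CPM against 127, 144, 144 and 176 CPM (-0.61 ± 0.10), Syn1 and Syn2 fell by 0.45 ± 0.08 each, and Snap25, of the fusion machinery, by 0.45 ± 0.09. Of 37 postsynaptic genes 16 fell, with Homer2 at -0.58 ± 0.11 and Dlg2 at -0.44 ± 0.09. Of 29 glutamate receptor genes 9 fell (median -0.22), Grm3 by 0.56 ± 0.12 and Gria4 by 0.35 ± 0.08, and of 18 GABA and glycine receptor genes 11 fell (median -0.31), Gabrg3 by 0.42 ± 0.09. Sodium and calcium channel genes gave 8 of 23 lower and potassium and HCN channel genes 12 of 42; Kcnip2 fell by 0.76 ± 0.09 and Cacna2d1 by 0.63 ± 0.12. None of these lists had a member called higher.

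These counts of small falls moved with 1 library. Without mutant 1, 8 excitatory, 14 presynaptic, 6 postsynaptic, 4 glutamate receptor, 2 GABA receptor, 3 sodium and calcium channel and 6 potassium channel genes were called lower. Without wild type 4 the numbers were 11, 13, 7, 5, 6 and 4 for the lists before the potassium channels. Postsynaptic genes numbered 8 without mutant 2, and sodium and calcium channel genes 5 without wild type 2. In the other direction, sodium and calcium channel genes numbered 12 without mutant 4, and without a count filter 25 postsynaptic, 13 sodium and calcium channel and 19 potassium channel genes were called lower. With library-size scaling they were 8, 13, 8, 5, 6, 4 and 7, and the medians kept their sign, at -0.22 and -0.19 for excitatory and presynaptic genes.

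Axonal and dendritic cytoskeleton genes fell, 16 of 30 with 1 higher. Tuba4a had 374 to 396 CPM in the wild types and 203, 228, 254 and 249 CPM in the mutants (-0.72 ± 0.08, adjusted p = 3.37e-05), and Stmn2, a microtubule regulator of axons, fell by 0.54 ± 0.08. The genes with the largest falls of all include Ano3, a membrane protein of the anoctamin family, with 122, 189, 126 and 133 CPM against 48.1, 63.6, 60.2 and 59.9 CPM (-1.29 ± 0.13), and Wnt2, with 2.40 to 4.33 CPM against 0.50 to 1.41 CPM (-1.73 ± 0.32). Immediate early genes, which respond to activity and to stress, went the other way: 13 of 35 rose and 0 fell (median 0.24). Wild type 4 had the lowest level of this list, and without it 9 rose and the median was 0.16. Without a count filter, or with the replicate number as a block, 3 fell. Jun had 53.4 to 61.6 CPM against 169, 154, 131 and 109 CPM (1.30 ± 0.11), and Atf3, induced with Jun in injured neurons, rose by 2.61 ± 0.36. The genes of this list tied most closely to synaptic activity, Fos, Arc and Npas4, were not called (0.46, 0.40 and -0.17). Without a count filter Fos and Arc were called higher (adjusted p = 6.22e-05 and 3.64e-05), and without wild type 4, which was low for both, their values were 0.25 and 0.16. Vgf, a secreted neuropeptide precursor, rose by 0.68 ± 0.08 (337 to 422 CPM against 568 to 675 CPM).

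Messenger RNAs of the mitochondrial genome fell, while none of the nuclear genes of the same complexes was called. Of 13 mitochondrially encoded genes 11 fell (median -0.67), the same number in every setting. mt-Co2, a subunit of cytochrome oxidase, had 198, 233, 164 and 175 CPM in the wild types and 97.5, 98.9, 103 and 107 CPM in the mutants (-0.92 ± 0.10, adjusted p = 2.64e-05). mt-Cytb had 6104 to 8189 CPM against 3635 to 4810 CPM, mt-Nd4 fell by 0.69 ± 0.10, and mt-Nd3 (-0.09) and mt-Atp8 (-0.29) were not called. Counts on the mitochondrial genome were 4.44 to 5.64% of the total in the wild types and 3.13 to 3.85% in the mutants. Of 75 nuclear genes of oxidative phosphorylation 0 were called by edgeR and 2 by DESeq2, and 8 had an unadjusted p under 0.05, with the smallest adjusted p at 0.0616 (Ndufs4) and a median of -0.09. The count of falls was 6 without wild type 2 and 3 without mutant 3. How much mitochondrial RNA carries a tail and reaches a polyA library was not measured, and its part in the fall was not tested. Of 25 glycolytic genes 7 fell and 1 rose: Eno1 fell by 0.35 ± 0.07 and Ldha by 0.40 ± 0.08, and Hk2, hexokinase 2, rose by 0.98 ± 0.20. The 7 became 3 without mutant 1 or under library-size scaling, 4 without mutant 2 or wild type 4, and 13 without wild type 2.

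Some smaller lists complete the account. Of 20 clock genes 4 rose and 1 fell: Ciart had 8.95 to 11.8 CPM against 19.4 to 23.5 CPM (0.97 ± 0.12), Cry1 rose by 0.68 ± 0.11, and the core genes Arntl and Per2 were not called (0.00 and 0.04). With library-size scaling 7 rose. Of 12 genes of interferon-linked metabolism 5 rose, among them Cmpk2, a mitochondrial nucleotide kinase next to the antiviral gene Rsad2, by 1.25 ± 0.14. Cyb5r1, a reductase outside the lists and among the smallest p-values, had 17.4, 17.5, 20.2 and 16.6 CPM against 59.9, 48.2, 47.8 and 50.5 CPM (1.52 ± 0.10, adjusted p = 1.09e-06). Of 19 tested choroid plexus and ependymal markers, Ttr rose by 0.48 ± 0.12 with overlapping groups (364 to 530 CPM against 524 to 698 CPM), and of 29 markers of thalamus, hypothalamus and midbrain 3 rose (Prkcd, Avp and Agrp) and 2 fell (Adarb1 and Irs4), with a median of -0.02; without mutant 1 there was 1 riser. The call of Agrp was lost without any 1 library other than mutant 4, and that of Irs4 under library-size scaling and without any of 6 libraries. The 2 falls were 4 without wild type 2 and 1 without wild type 1, 3 or 4, without mutant 2, 3 or 4 or under library-size scaling.

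**Figure D3:**
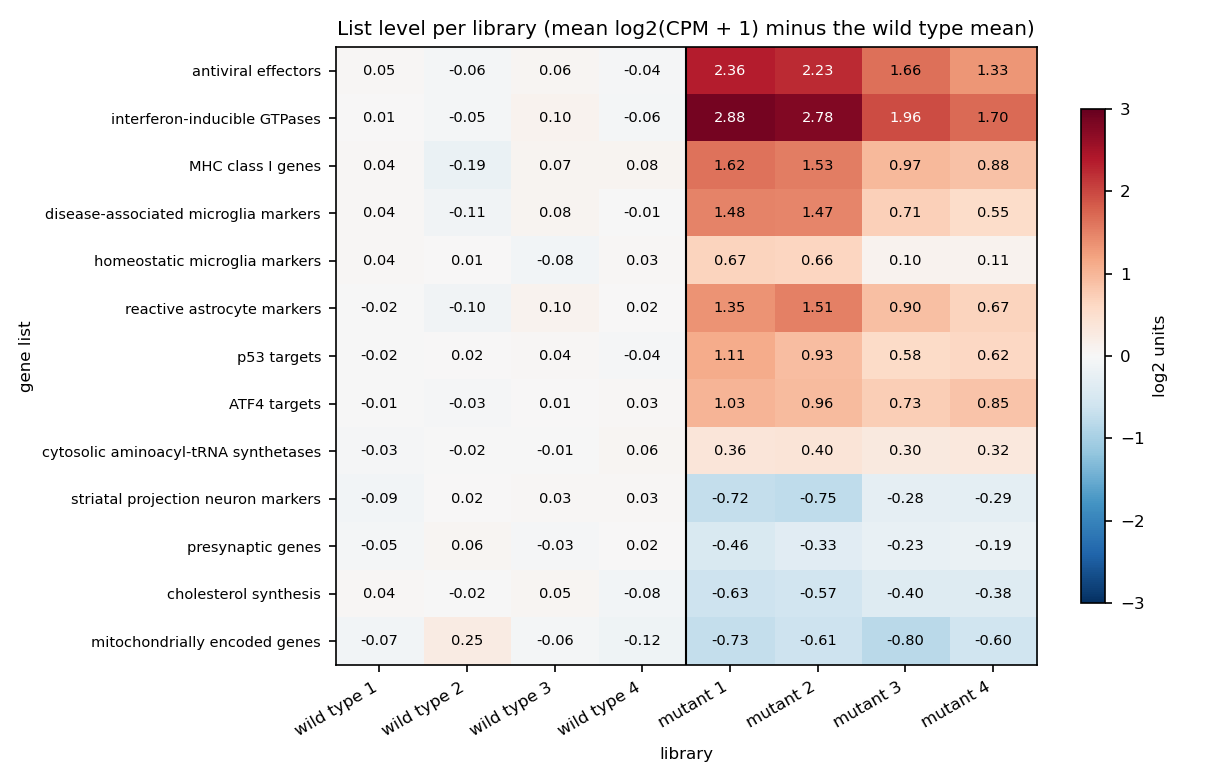
Level of 13 gene lists (rows) in each library (columns), as the mean over tested members of log2(CPM + 1) minus the wild type mean, in log2 units, with the value printed in each cell. Antiviral effectors stand at 2.36, 2.23, 1.66 and 1.33 in mutants 1 to 4 and striatal markers at -0.72, -0.75, -0.28 and -0.29, while aminoacyl-tRNA synthetases (0.36, 0.40, 0.30 and 0.32) are more even.

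The same comparison exists at P42, 14 days after tamoxifen, with 4 mutant and 4 wild type libraries of both sexes, where 3 of 18205 genes were called. Whether the genotype effect differed between the ages was tested as an interaction over 16 libraries with sex as a covariate. The effect was higher at P75 for 201 of 19273 genes (1.04%) and lower for 62 (0.322%). Those higher at P75 include 37 of the antiviral effectors, 12 of the GTPases, 6 genes of the ISG15 list and 8 of the homeostatic microglia markers. For Oasl2 the log2 fold change was 0.45 at P42 and 4.93 at P75 (difference 4.49 ± 0.43, adjusted p = 1.17e-04), for Isg15 -0.09 and 4.39, for Gbp3 0.12 and 3.62, for Rnf213, a large ubiquitin ligase, 0.15 and 3.21, and for Irf7 0.27 and 4.74. The total of 263 depended on single libraries: it was 1169 without P42 mutant 1 and 124 to 346 without any other library, and DESeq2 gave 670.

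Of the 37 ATF4 targets 2 had a called interaction, and the list median was 0.40 at P42 (36 members tested) and 0.75 at P75. Chac1 had 1.77 at P42 and 1.99 at P75, Slc7a3 1.08 and 1.38, and Mthfd2 1.27 and 1.38, with differences of 0.23 ± 0.36, 0.31 ± 0.19 and 0.11 ± 0.23 (adjusted p = 0.816, 0.486 and 0.871); at P42 none of them was called. Stc2 was one of the 2, with 0.35 at P42 and a difference of 2.19 ± 0.39 (adjusted p = 0.00722), and Sesn2 the other (1.13 ± 0.26, adjusted p = 0.0359). The medians at P42 and P75 were -0.46 and -0.32 for excitatory neuron markers and -0.43 and -0.46 for striatal markers; 0 members of either list were called in the interaction. The p53 targets (27 of 28 tested at P42) went from 0.06 to 0.78 with 4 members called. Mitochondrially encoded genes (12 of 13 tested at P42) went from -0.28 to -0.67 with 2 called as lower at P75. Cholesterol synthesis went from -0.19 to -0.58 with 1 called. Among the genes whose effect was lower at P75 were Slitrk6 (2.32 at P42, -0.13 at P75) and Synpo2 (2.12 and -0.02), which were also 2 of the 3 genes called at P42, and markers of thalamus, hypothalamus and midbrain had a P42 median of 1.4. The part of dissected tissue content in the P42 values, and so in each difference between the ages, was not tested. Age, time since tamoxifen and the separate count tables cannot be told apart.

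**Figure D4:**
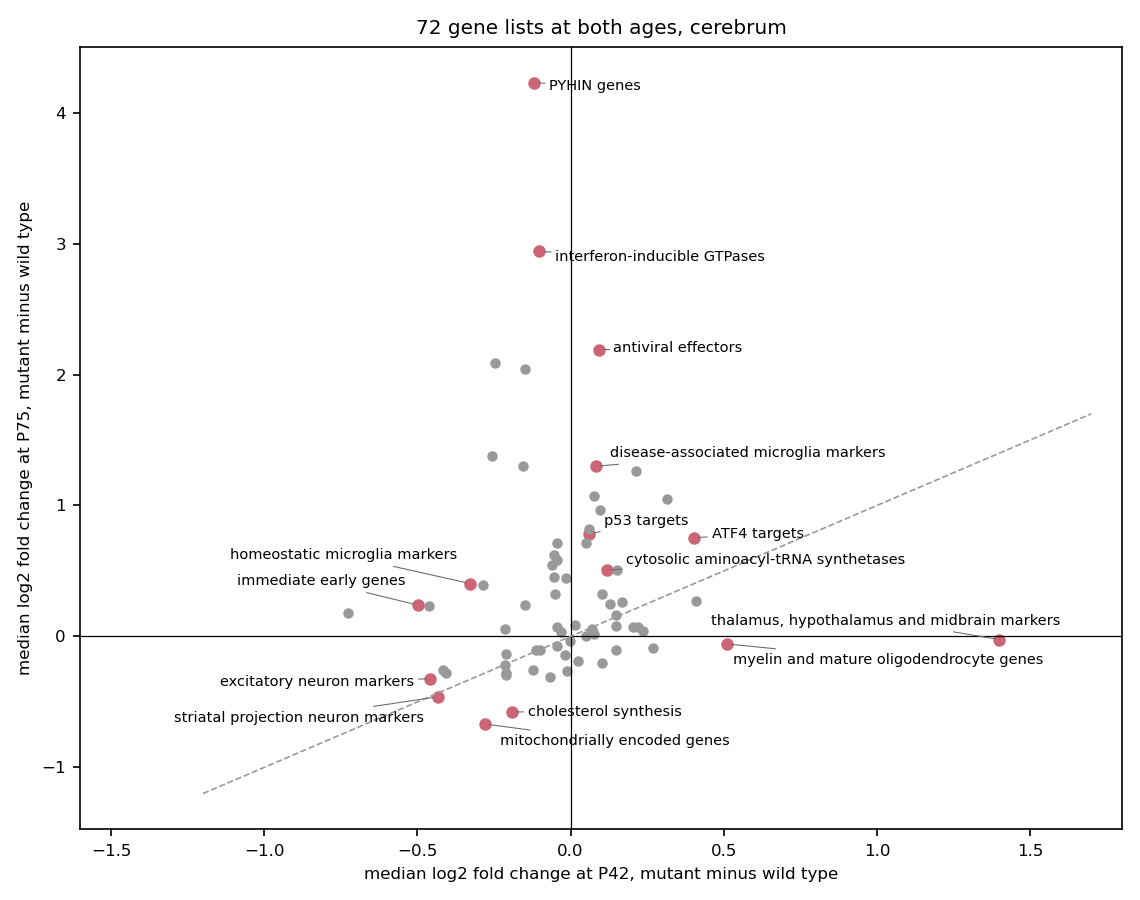
Median log2 fold change (mutant minus wild type) of 72 gene lists with at least 5 tested members, at P42 (horizontal axis) and at P75 (vertical axis), with equal values on the dashed line and labelled lists in red. Antiviral effectors, interferon-inducible GTPases and PYHIN genes lie near 0 at P42 and at 2.19, 2.94 and 4.23 at P75, while excitatory and striatal neuron markers are below 0 at both ages. Not every member was tested at P42, where the interferon lists named here rest on 59, 11 and 5 members, against 65, 17 and 9 at P75.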

How the data were processed

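Polyadenylated RNA of mouse cerebrum was sequenced at P75 (8 libraries) and P42 (8 libraries); 8 cerebellum libraries are not analysed here. The authors deposited raw read counts per gene (54532 genes), with gene lengths; HISAT2, DESeq2 and mm10 are named in the submitters' processing notes, while the counter, annotation release and versions were not given in the sources used here. The authors' deposited table also gives log2 fold changes and adjusted p-values at P75. Its 17572 genes hold 3128 called at an adjusted p under 0.05, 1612 higher and 1516 lower; 2486 of them were also called here, all with the same sign.

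Counts were tested with edgeR 4.0.16 in R 4.3.3 (filterByExpr by genotype, TMM scaling, quasi-likelihood F test, two-sided, Benjamini-Hochberg adjustment over all tested genes, threshold 0.05); every adjusted p not credited otherwise comes from it. The standard error is the absolute log2 fold change divided by the square root of F. The interaction of genotype and age was fitted over 16 libraries with sex as a covariate. The fit was tested on simulated counts before use. Alternatives were DESeq2 1.42.0, RLE or library-size scaling, other count filters, a replicate block and leaving out each library. Total counts of 15714578 to 20481390 per library at P75 set the precision, and no 2 libraries were identical. Intervals on counts are exact and cover counting error only, and 3 counts serve as the floor for a count of 0. Promoter windows and sequences come from RefSeq (GRCm38.p6), which matched 12338 of 17514 tested symbols. The files' mm10 coordinates are given as deposited.

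Members and the 76 gene lists (1813 of 1818 symbols found) were chosen with earlier results of these data known, so lists are described by counts and medians and not tested. Named genes are Polr3a and Esr1; the members with the smallest p of every list, at most 4; the 15 genes each way with the largest change and the 10 with the smallest p among called genes with a mean of at least 1 CPM, an approved symbol and groups that do not overlap; and the 5 genes each way with the smallest interaction p. From these a selection is printed. The text names 56 genes outside this rule, chosen after their values were seen: Adar, Adora2a, Arc, Arntl, Asns, Atf4, Bax, Casp4, Cbln1, Cbln3, Chac1, Cldn5, Cth, Drd1, Eprs, Farsb, Fos, Gad1, Gap43, Gars, Gdf15, Gfap, Gpt2, Hmgcs1, Iars, Il34, Irs4, Lsm11, Mavs, Mb21d1, Mbp, Mdm2, Mthfd2, Npas4, Npy, Per2, Phgdh, Ppp1r15a, Psat1, Psmb10, Pvalb, Rsad2, Slc17a7, Slc40a1, Snap25, Srebf2, Sst, Tars, Tbk1, Tfrc, Tmem173, Trib3, Vldlr, Zic1, mt-Atp8 and mt-Nd3. Some results are not reported here.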

Additional observations from a re-analysis of the deposited data

Results flagged for a closer look

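Among 500 sets of 4 libraries (the wild types or the mutants of each gene named in the text), 32 held a library whose gap to the other 3 exceeded Dixon's 95% criterion, where chance gives about 1 in 20. Wild type 2 was the library in 11 of them. It was high for Ano3 at 189 CPM, Cacna2d1 at 313 CPM, Idi1 at 34.7 CPM, Mki67 at 3.47 CPM, Snap25 at 2234 CPM, Vldlr at 118 CPM and mt-Cytb at 8189 CPM. It was low for Bax at 19.8 CPM, Ifit3 at 5.94 CPM, Psmb10 at 18.3 CPM and Vgf at 337 CPM. Without wild type 2 the number of genes called was 2539.

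Wild type 4 was low for the activity-linked genes Arc at 111 CPM (others 277 to 308 CPM) and Fos at 20.2 CPM (others 43.5 to 45.8 CPM), and for Ciart at 8.95 CPM. It was high for Slc17a7 at 1093 CPM, Ndufs4 at 51.3 CPM, Uba7 at 5.66 CPM and Cxcl9 at 0.197 CPM, the latter 3 counts against 0 in the other wild types. Wild type 1 was high for Ccl5 at 0.378 CPM, Cst7 at 0.631 CPM and Isg15 at 2.9 CPM, 3 genes of the immune lists that are higher still in all mutants, and low for Lsm11 at 35 CPM. Wild type 3 was high for Cmpk2 at 29.6 CPM, Hapln4 at 154 CPM, Tbk1 at 56.4 CPM and Lcn2 at 1.51 CPM (others 0.189 to 0.395 CPM).

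Among the mutants, mutant 3 was low for Arntl at 31.2 CPM and Eprs at 125 CPM (others 152 to 155 CPM), and high for the globin gene Hbb-bs at 81.5 CPM (others 2.37 to 7.94 CPM). Mutant 1 was high for Rps27l at 17.3 CPM and low for Stmn2 at 199 CPM, and mutant 2 was high for Clspn at 1.61 CPM.

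The genotype effect differed between P75 and P42 for the 10 genes with the smallest interaction p in each direction (5 each, edgeR's quasi-likelihood test). It was higher at P75, in log2 units, by 4.49 for Oasl2, 4.49 for Isg15, 3.81 for Ifit3, 3.51 for Gbp3 and 3.06 for Rnf213, each with adjusted p = 1.17e-04. The interaction value was -2.45 for Slitrk6, -2.14 for Synpo2, -0.96 for Adarb1, -3.55 for Abhd12b and -1.09 for Rims3. For Abhd12b the log2 fold change was 3.55 ± 0.52 at P42 and -0.01 ± 0.23 at P75, and for Rims3 it was 0.91 ± 0.17 and -0.19 ± 0.07.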

How the results depend on the processing

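Most calls of single genes did not change over 250 genes and 14 alternatives. In 3316 values the gene stayed called in the same direction or stayed uncalled, in which case its sign could differ. Another 152 lost their call and 26 gained one. Only 1 value changed direction with a call on either side, that of Hbb-bs. It was -1.85 without mutant 3 (adjusted p = 0.0391) and up to 1.28 without wild type 3, against 0.45 over all libraries. For the 2502 genes called at P75, the total was 1086 at an adjusted p under 0.01 (684 higher and 402 lower). Scaling by library size alone gave 2313 higher and 547 lower; the medians of 9 lists then went from under to over 0: mitochondrial synthetases, endoplasmic reticulum stress, precursors, myelin, thalamus, neuropeptides, perineuronal nets, nuclear oxidative phosphorylation and kynurenine metabolism. Leaving out 1 library gave 1356 (mutant 1) to 2783 (mutant 4) genes in all, 831 to 1547 higher and 525 (mutant 1) to 1236 lower, with 662 lower without wild type 4 and 758 without mutant 2. RLE scaling, DESeq2, no count filter and the stricter filter gave 2491, 3084, 3241 and 2415.

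Groups share replicate numbers, which the labels do not tie to litters or days. Same-numbered libraries had correlations of 0.0814, 0.226, 0.125 and 0.0521 in their deviations from the group means. Each library correlated best with its own number in the other group. On the second principal component wild type 2 and mutant 2 lay at -25 and -15.4, and the other libraries between 0.813 and 12.4. Not every pair passed 0.1, a chosen limit, so the main test left the numbers unpaired. Whether they are pairs is not settled. With the replicate number as a block 3537 genes were called, 1693 higher and 1844 lower, and 2481 of the 2502 were among them. By list it gave 9 ribosomal protein, 11 homeostatic microglia and 7 clock genes higher, and 6 myelin, 6 inhibitory neuron, 7 nuclear oxidative phosphorylation, 12 glycolytic, 5 axonal injury, 27 postsynaptic, 15 glutamate receptor, 17 sodium and calcium channel and 21 potassium channel genes lower; Rn7sk was called lower (adjusted p = 0.0445).

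The interaction with age, 263 genes (201 higher, 62 lower at P75), gave 670 with DESeq2 (449 and 221), 135 in males only (93 higher), 100 at an adjusted p under 0.01 (91 and 9), 38 lower under library-size scaling and 114 lower with the replicate block. Leaving out 1 library gave 124 (P75 mutant 1) to 1169 (P42 mutant 1) in all, 104 to 616 higher and 20 to 553 lower. Other totals that moved by over 1.5 times were 166 without P42 mutant 4, 159, 153 and 158 without P75 wild types 1, 3 and 4, and 144 without P75 mutant 2. In the 100 bases nearest the start, which can hold no more matches than the whole window, the interferon core was in 1.15% and the C/EBP-ATF core in 1.32% of all promoters. There the interferon core was in 4.66% of genes called higher and 1.06% of genes called lower. It was in 15 of 50 antiviral effector, 3 of 10 GTPase, 5 of 8 PYHIN, 0 of 12 MHC class I and 0 of 29 presynaptic genes. The C/EBP-ATF core was in 4 of 32 ATF4 targets and 5 of 15 cytosolic synthetase genes.

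Depth limits the low genes: 37009 of 54532 genes had too few counts to be tested, among them all interferon ligands. Genes with hardly any wild type counts passed the filter only through the mutants, so they can enter a list count as risers but not as fallers. With 4 libraries a group, small changes can be missed.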

Other observations

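Some further gene groups held called genes, in some cases at shares near those over all genes (7.66% higher and 6.62% lower). Of 17 perineuronal net genes, which build the matrix around neurons, 4 fell and 1 rose (median -0.07). Ncan, the proteoglycan neurocan, had 221, 235, 202 and 227 CPM in the wild types and 145, 154, 161 and 187 CPM in the mutants (-0.45 ± 0.08, edgeR's adjusted p = 0.00264), and the link protein gene Hapln4 fell by 0.34 ± 0.07. The 4 falls were 2 under library-size scaling or without wild type 1 or 2 or mutant 1 or 3. Of 28 neuropeptide and neurotrophic factor genes 3 fell and 2 rose (10.7% and 7.14%). Cck, the cholecystokinin precursor, had 210 to 263 CPM against 149 to 211 CPM, with overlapping groups, and fell by 0.43 ± 0.11; Pcsk1, which cleaves such precursors, fell by 0.50 ± 0.11. The 3 falls were 1 under library-size scaling or without wild type 4 or mutant 1 or 2, 2 without wild type 1 or 3 and 5 without a count filter; the 2 rises were 4 under library-size scaling and 1 without wild type 1, 3 or 4 or mutant 2 or 4. Of 16 genes of axonal injury 4 rose (Jun, Atf3, Csf1 and Npy) and 3 fell (Stmn2, Cacna2d1 and Gap43), a list that shares members with several others; the falls were 2 under library-size scaling or without wild type 3 or 4 or mutant 1 or 2.

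Of 16 genes of iron and copper handling 5 rose and 1 fell. Lcn2, lipocalin 2, an iron-siderophore binding protein, had 0.19, 0.20, 1.51 and 0.39 CPM in the wild types and 3.62, 12.7, 5.84 and 4.17 CPM in the mutants (3.41 ± 0.55, edgeR's adjusted p = 0.00101), with mutant 2 the highest. The iron exporter gene Slc40a1 and the transferrin receptor gene Tfrc were not called (-0.03 and 0.14). The 5 rises were 2 without wild type 3 or 4 or mutant 1 or 2 and 3 without wild type 1 or 2, and the 1 fall was not called under library-size scaling or without wild type 4 or mutant 1. Of 18 glucocorticoid-responsive genes 4 rose and 0 fell (at an unadjusted p under 0.05, 2 were lower, and DESeq2 called 0 lower): Cdkn1a, Lcn2, Ddit4 and Mt1, of which the first is also a p53 target. Leaving out wild type 2, 3 or 4 or mutant 1 or 2 left 2 rises, and library-size scaling or no count filter gave 6. Of 21 genes of meningeal fibroblasts and matrix 1 rose and 2 fell (4.76% and 9.52%), with Col6a1 lower by 0.80 ± 0.13. Of 16 genes of kynurenine and NAD metabolism Nampt, which makes an NAD precursor, rose by 0.46 ± 0.11. Gap43, Slc40a1 and Tfrc were named after their values were seen.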
